A study of Caenorhabditis elegans with 19 samples.

Results

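The genes described here are 8 regulators of the molting clock of Caenorhabditis elegans: lin-42, kin-20, nhr-23, nhr-85, nhr-25, daf-12, blmp-1 and dre-1. Their sites of LIN-14 binding were picked by gene name in the annotated tables of the authors, where the nearest transcript decides the name. Of 18846 gene names in those tables, these 8 held 30 of 37018 peaks of the first larval stage (L1), 7 of 8333 peaks of the second stage (L2), and 12 of 14675 sites in the comparison of L2 with L1.

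Binding was measured by chromatin immunoprecipitation and sequencing (ChIP-seq) in whole larvae of the strain lin14(cc2841[lin-14::gfp]), in which the developmental timing factor LIN-14 carries GFP at its C terminus. All L1 and L2 groups analysed here carried that allele, and chromatin was pulled down through the GFP. Synchronised larvae had been on food for 8 ± 1 hours at L1 (5 ChIP and 4 input libraries) and for 21 ± 1 hours at L2 (5 ChIP and 4 input libraries). An untagged N2 library of L1, the negative control, is not analysed here, so sites that would appear without the tag were not set aside. Each stage has 1 peak list called on merged libraries, so peak values carry no replicate error and the depth per library is unknown. Material was pooled from all tissues, so LIN-14 at a site in fewer cells and less LIN-14 per cell cannot be told apart.

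Worm larvae shed their cuticle at the end of each stage, and many epidermal genes switch on and off with that rhythm. LIN-42, a relative of the circadian protein PERIOD, and KIN-20, a casein kinase 1 related to Doubletime of flies, act in its timing. NHR-23 and NHR-85 resemble the mammalian circadian receptors ROR and REV-ERB, NHR-25 belongs to the SF-1 (Ftz-F1) family, and DAF-12 is the nuclear receptor for the dafachronic acid hormones. BLMP-1 is a zinc finger repressor of the BLIMP1 family, and DRE-1 is the F-box protein that targets BLMP-1 for degradation. LIN-14 acts in the same larval timing system, and its level falls after L1.

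All 8 genes had at least 2 L1 peaks, whereas L2 peaks were assigned to 4 of them, nhr-23, nhr-85, blmp-1 and dre-1. Of all 18846 named genes, 18651 had an L1 peak, with a median of 2, and 6247 had an L2 peak. A gene is named there only through a peak or site assigned to it, so the L1 share was close to fixed in advance. It is not a rate over all genes of the worm, which was not computed. The genes with no assigned L2 peak were lin-42, kin-20, nhr-25 and daf-12. The L1 peaks were of ordinary strength. Their fold enrichment over control at the summit, a value of the authors' peak caller, ran from 1.46 to 2.26 with a median of 1.81, which is also the median of all L1 peaks. Of the 30 peaks 4 (13.3%) reached a fold enrichment of 2, against 24.7% of all L1 peaks. The 4 were single peaks of lin-42, nhr-23, blmp-1 and dre-1. The 7 L2 peaks ran from 1.50 to 1.75, with a median of 1.54 in them and in all L2 peaks.

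**Figure D1:**
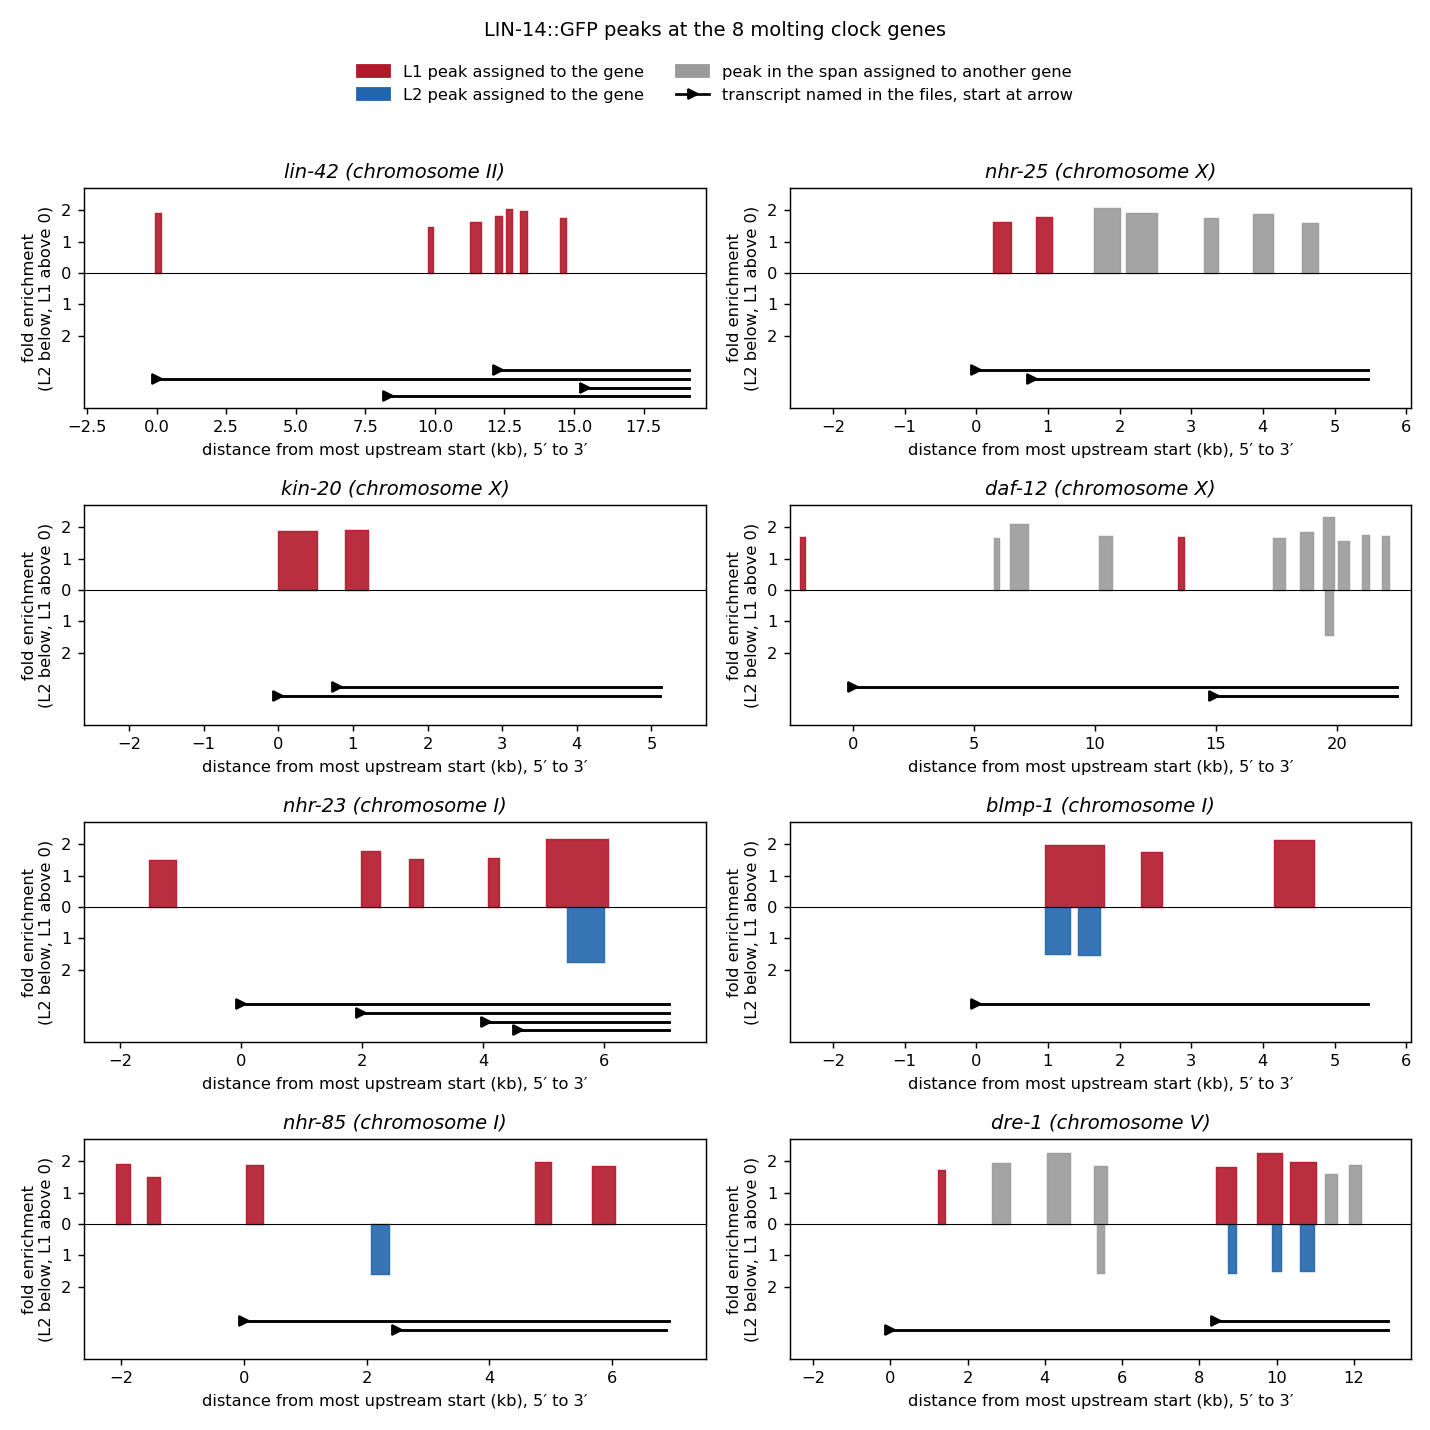
Peaks along the 8 genes, drawn 5′ to 3′ with distance in kb from the most upstream transcript start named in the files on the x axis and fold enrichment on the y axis (L1 upwards, L2 downwards). Red and blue bars are peaks assigned to the gene, grey bars lie in its span but are assigned to another gene, and black lines are transcripts, with an arrow at their start. In lin-42 most peaks lie around an internal start, and daf-12 is covered mainly by grey bars.

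The clock genes lin-42 and kin-20 were bound in L1 with no L2 peak. lin-42 (chromosome II, minus strand, 1233237 to 1252366) had 7 L1 peaks, a number reached or passed by 1.53% of genes with an L1 peak, where the median is 2. Positions are counted from 1, to which the deposited starts of peaks and sites were moved. No source used here names the genome build. Of the 7, 4 were assigned to a transcript that starts at 1240108, inside the gene. Their enrichments were 1.97 at 1239064 to 1239296, 2.04 at 1239604 to 1239824, 1.80 at 1239954 to 1240221 across that start, and 1.62 at 1240710 to 1241089. Thus the strongest of the lin-42 peaks had its summit 384 bp past the internal start.

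The most upstream lin-42 start had a single peak at 1252206 to 1252410, with an enrichment of 1.90 and its summit 38 bp past the start. The other two lay upstream of the shortest transcript, at 1237654 to 1237874 (1.76), and past the start of another, at 1242446 to 1242626 (1.46). The last was the weakest of the 30 peaks, and 2.93% of all L1 peaks were weaker. All 7 lay inside the span of the gene, at 0.366 L1 peaks per kb. That was close to the 0.369 per kb over the chromosomes, sequence between genes included, so the count of 7 stands beside a span of 19.13 kb.

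kin-20 (chromosome X, minus strand, 15268533 to 15273659 for the transcripts named in the files) had 2 L1 peaks, each within 1 kb of a transcript start. The peak at 15273138 to 15273659 reached the more upstream of the named starts only with its edge. It had an enrichment of 1.87 and its summit 350 bp past that start. The other, at 15272459 to 15272762, had an enrichment of 1.91 and its summit 246 bp past a start at 15272878. RefSeq gives kin-20 a length of 9163 bp in assembly WBcel235, longer than the 5.127 kb of the named transcripts.

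Among the peaks assigned by name to the nuclear receptor genes, the strongest was at nhr-23, and it was the only one of the 5 nhr-23 peaks with an L2 counterpart. It lay at 7219785 to 7220802 on chromosome I, spanned 1018 bp, and had an enrichment of 2.16, higher than that of 88.1% of L1 peaks. The L2 peak within it, at 7220132 to 7220751, had an enrichment of 1.75, higher than that of 94.6% of L2 peaks, and its summit lay 134 bp from that of L1. Both lay past the most internal nhr-23 start, at 7219316. A peak of 1.79 covered the start at 7216723. The remaining 3 were weak, at 1.51 upstream of the gene, 1.52 and 1.55.

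nhr-85 (chromosome I, minus strand, 13055190 to 13062111) also had 5 L1 peaks. The peak at its upstream start, 13061801 to 13062081, had an enrichment of 1.88. Upstream of it lay peaks of 1.93 at 13063960 to 13064200 and of 1.51 at 13063477 to 13063692. The strongest, 1.99 at 13057111 to 13057377, and a peak of 1.85 in the 3′ UTR at 13056063 to 13056445 lay in the stretch that nhr-85 shares with npr-14. That neuropeptide receptor gene runs on the opposite strand from 13050434 to 13057424, so these peaks belong to either gene by position.

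The nhr-85 L2 peak stood apart from its L1 peaks. It lay at 13059753 to 13060035, with its summit 323 bp upstream of the internal start at 13059614 and an enrichment of 1.59. No L1 peak overlapped it, and the nearest L1 peak was 1766 bp away. Such L2 peaks are rare, 182 of 8333 (2.18%), and 16 of the 182 had a higher enrichment. No site of the stage comparison covered it, with the nearest 1792 bp away, so whether occupancy there differed between stages was not tested.

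nhr-25 and daf-12 had 2 L1 peaks each. At nhr-25 (chromosome X, plus strand) they lay 368 bp past the upstream start by summit, with an enrichment of 1.63, and 153 bp past the internal start, with 1.78. At daf-12 (chromosome X, plus strand) the peaks of 1.68 and 1.69 lay 2134 and 1412 bp upstream of its starts by summit. Neither daf-12 peak overlapped a site of the stage comparison.

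blmp-1 (chromosome I, plus strand, 10409293 to 10414764) had 3 L1 peaks and none over its start. The first, at 10410259 to 10411071 with an enrichment of 1.97, began 966 bp past the start and held 2 separate L2 peaks of 1.51 and 1.54. A weaker peak lay at 10411598 to 10411884, with a -log10 q of 6.19. The strongest, 2.14 at 10413447 to 10414001, was in the 3′ UTR and had no L2 counterpart. With the nhr-85 peak, 2 of the 30 L1 peaks were of the 3′ UTR class, which holds 116 of all 37018 (0.313%).

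dre-1 (chromosome V, minus strand, 6533597 to 6546483) had 4 L1 peaks, and 3 of them overlapped an L2 peak. These 3 lay at and past an internal start at 6538045, with L1 enrichments of 1.82, 2.26 and 1.98 from 5′ to 3′. The L2 enrichments there were 1.56, 1.50 and 1.50. The strongest of all 30 peaks was the middle one, at 6536334 to 6536981, which exceeded 92.9% of L1 peaks and whose L1 and L2 summits were 2 bp apart. A peak of 1.73 past the upstream start had no L2 counterpart.

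Over all 8 genes, 5 of 30 L1 peaks (16.7%) overlapped an L2 peak by at least 1 bp, against 20.9% of all L1 peaks. These overlaps included none at lin-42, kin-20, nhr-85, nhr-25 or daf-12. The 5 had L1 enrichments of 1.82 to 2.26 and the other 25 of 1.46 to 2.14, so the ranges overlap.

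**Figure D2:**
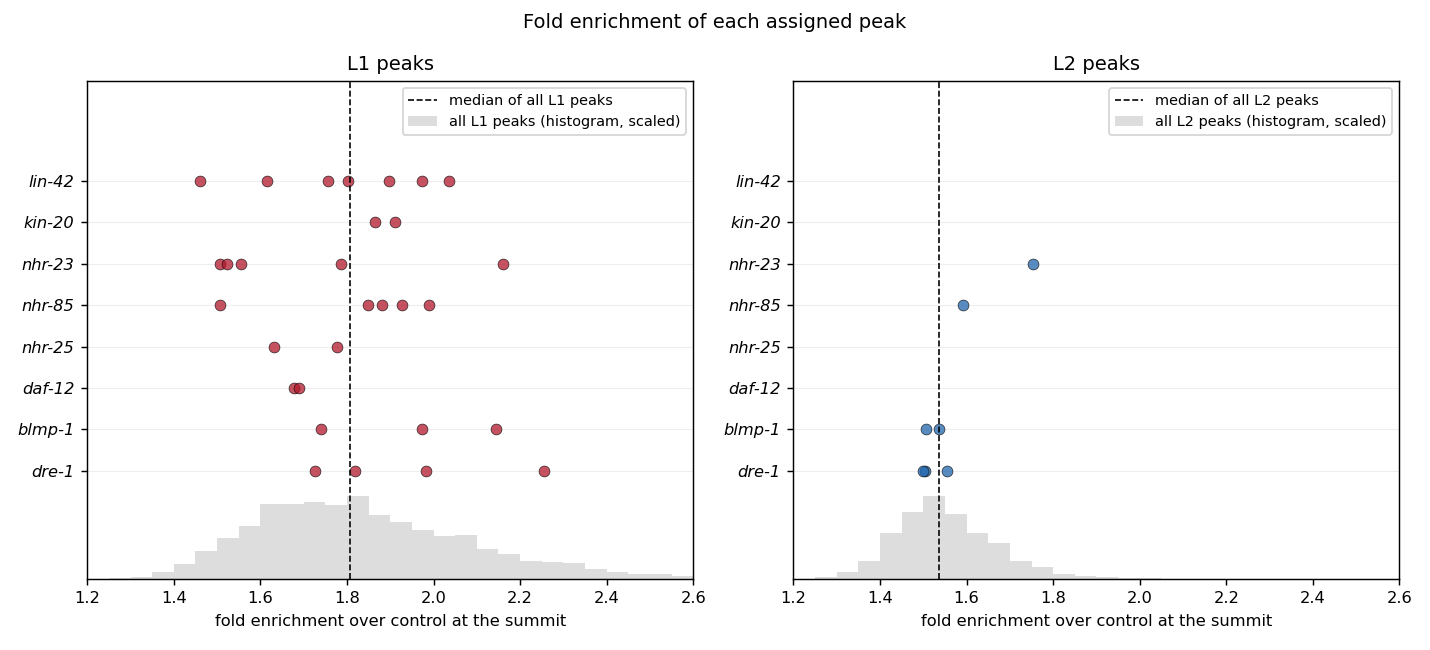
Fold enrichment over control at the summit (x axis) of each peak assigned to the 8 genes (rows), for L1 on the left and L2 on the right. Grey histograms show all peaks of the stage, scaled to a common height, and dashed lines their medians. The points spread on both sides of the median, and the highest L1 points belong to dre-1, nhr-23 and blmp-1.

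Occupancy was lower in L2 at all 12 sites that the comparison lists for these genes, as at 99.7% of all listed sites, and 6 of the 12 fell at a false discovery rate (FDR) below 0.05 in the authors' deposited table. Over all listed sites 41.4% fell by the same rule in the authors' deposited table, so the 6 of 12 (50%) stand near the background. The 6 sites belonged to kin-20 (2), nhr-85 (2), blmp-1 (1) and dre-1 (1). No site rose, against 0.123% of all listed sites in the authors' deposited table. At an FDR below 0.1 the count was 9 of 12, beside 67.9% of all listed sites in the authors' deposited table. Of the 30 L1 peaks 12 (40%) overlapped a listed site, beside 38.7% of all L1 peaks. Values are log2 concentrations, the log2 mean of normalised reads per stage, and the log2 fold is L2 minus L1.

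kin-20 showed the largest drops. Just past the upstream start the authors' deposited table gave a log2 concentration of 6.28 for L1 and of 5.55 for L2. The log2 fold of -0.73 (FDR 0.0122) in the authors' deposited table is an occupancy lower by 39.7%, and 3.82% of listed sites dropped further. Past the internal kin-20 start the concentration went from 5.44 to 4.81 in the authors' deposited table (log2 fold -0.63, FDR 0.0247), an occupancy lower by 35.4%. Both L1 peaks of the kinase gene thus overlapped a site that fell.

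At lin-42 the only listed site, 1239044 to 1239282, had a log2 concentration of 5.36 in L1 and 4.87 in L2 in the authors' deposited table. With a log2 fold of -0.49 and an FDR of 0.0768 in the authors' deposited table, it missed the threshold. The other 6 L1 peaks of lin-42 overlapped no listed site, including its strongest at 2.04. For them a change was not measured, and the missing L2 peaks alone do not show one. Sites with an FDR above 0.3 are left out of the table, as are regions that were never tested.

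The receptor genes differed in their calls. At nhr-85 the upstream start went from 5.67 to 5.11 (log2 fold -0.56, FDR 0.0278) in the authors' deposited table. Its other site, in the stretch shared with npr-14, went from 5.66 to 5.10 (log2 fold -0.56, FDR 0.0332) in the authors' deposited table. Both fell by the same amount.

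At nhr-23 the broad site, 7219805 to 7220766, held the highest concentrations of the 12, 7.24 in L1 and 6.90 in L2 (log2 fold -0.34, FDR 0.117) in the authors' deposited table. Its second site, at the start at 7216723, went from 5.57 to 5.17 (log2 fold -0.40, FDR 0.0863) in the authors' deposited table. At nhr-25 the site past the upstream start went from 5.62 to 5.10 (log2 fold -0.52, FDR 0.057) in the authors' deposited table. None of these 3 passed.

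At blmp-1 the 3′ UTR site went from 6.47 to 5.97 (log2 fold -0.50, FDR 0.0473) in the authors' deposited table, the call closest to the threshold. The site nearer the start, which holds both L2 peaks, went from 7.04 to 6.74 and did not pass (log2 fold -0.30, FDR 0.16) in the authors' deposited table. This was the smallest drop of the 12.

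At dre-1 the site with the strongest L1 peak went from 6.90 to 6.33 (log2 fold -0.58, FDR 0.0325) in the authors' deposited table. The neighbouring site downstream went from 6.66 to 6.32 and did not pass (log2 fold -0.34, FDR 0.151) in the authors' deposited table. Thus blmp-1 and dre-1, the repressor and its degradation factor, each had a site that fell and a site that did not pass.

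**Figure D3:**
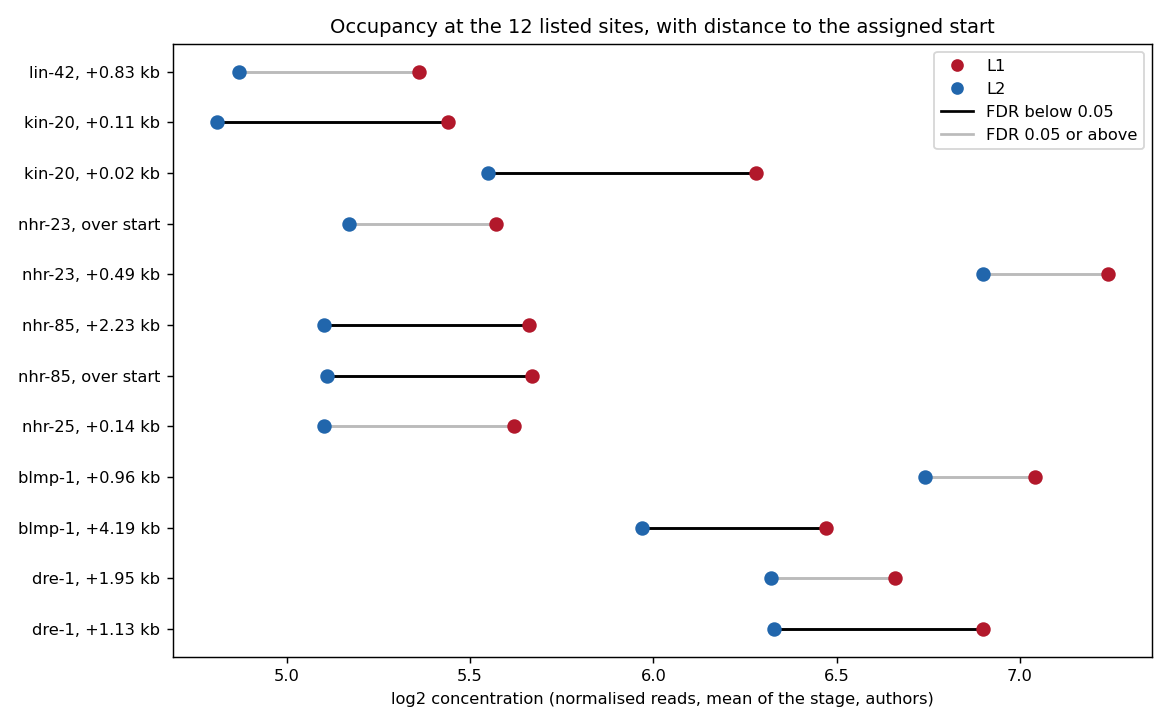
Log2 concentration in L1 (red) and L2 (blue) at the 12 listed sites, from the authors' table, with the distance of each site to its assigned start (positive is downstream). Black lines join sites with an FDR below 0.05 and grey lines the others. Every blue point lies left of its red point, and the sites of highest concentration belong to nhr-23, blmp-1 and dre-1.

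The 12 sites differed in level more than in change. The 4 that overlapped an L2 peak, at nhr-23, blmp-1 and dre-1, had L1 log2 concentrations of 6.66 to 7.24 in the authors' deposited table. The other 8 had 5.36 to 6.47 in the authors' deposited table, so these ranges do not overlap. Of the 4 sites 1 fell, and of the 8 sites 5 fell, by the FDR of the authors' deposited table. Over all listed sites 38.7% overlapped an L2 peak and 41.4% fell in the authors' deposited table. The log2 folds ran from -0.58 to -0.30 in the 4 and from -0.73 to -0.40 in the 8 in the authors' deposited table, which overlap. Peak calls and concentrations come from the same libraries, so a higher level at sites with an L2 peak is built in. The same split was not made over all listed sites, so this difference is not shown to be particular to these genes. It was not tested.

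The drops lay near the common drop of the whole table. The median log2 fold was -0.51 at the 12 sites and -0.44 over all listed sites in the authors' deposited table, and 8 of the 12 lay below that common median. Tested against -0.44 in place of 0, no site of the 8 genes fell, with an adjusted p of 0.997 for each (normal test on the authors' deposited table), and neither did any of all 14675 listed sites. The count at an unadjusted p under 0.05 was 0 of 12 in that test, with 0.161 at the upstream kin-20 site as the smallest, and 88 of 14675 over all listed sites. Standard errors implied by the deposited folds and p-values were 0.191 to 0.237, so the order of the 12 folds is not resolved by these errors. With such errors, and adjusted over all listed sites, the test against the median could hardly call differences like -0.29, the largest here. Its outcome thus does not show that these drops equalled the median. No source used here states how the reads were normalised.

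**Figure D4:**
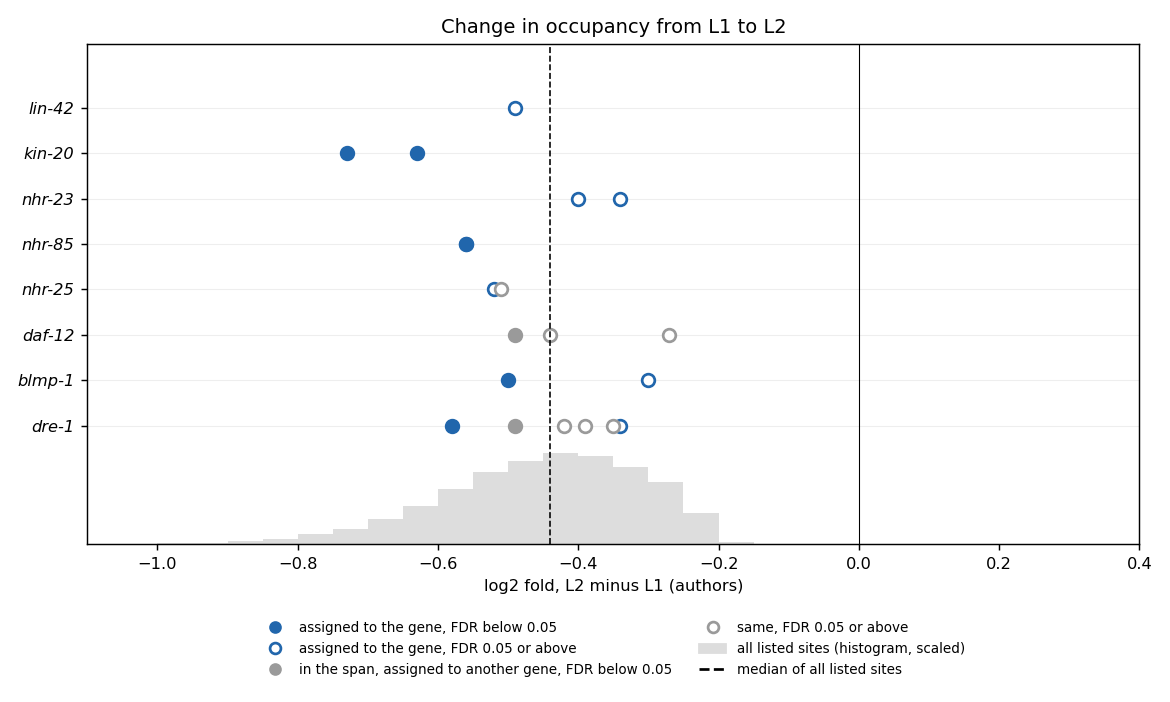
Log2 fold from L1 to L2 (x axis, the authors' values) of listed sites in each of the 8 genes (rows). Filled points have an FDR below 0.05, blue points are assigned to the gene, grey points lie in its span but are assigned to another gene, and the nhr-85 points coincide at -0.56. The histogram shows all listed sites, scaled, and the dashed line their median of -0.44, which runs through the middle of the points.

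Assignment to the nearest transcript left out most LIN-14 peaks inside daf-12, nhr-25 and dre-1. Counted by the span of the transcripts named in the files, a count added after the data were seen, daf-12 held 10 L1 peaks in place of 2. The same count gave 7 in place of 2 for nhr-25 and 9 in place of 4 for dre-1. These spans held 19 L1 peaks assigned to other genes, 17 of them to genes of non-coding RNAs in daf-12, nhr-25 and dre-1. The other two were assigned to the gene hpo-26, at dre-1. For lin-42, kin-20 and blmp-1 the counts were the same by either rule, though the kin-20 span of 5.127 kb is shorter than its RefSeq length of 9163 bp. The span rule lowered the count to 4 in place of 5 for nhr-23 and to 3 in place of 5 for nhr-85. In all, the 8 spans held 45 L1 peaks, or 0.532 per kb, against 0.369 per kb over the chromosomes. These densities are unlike measures. The spans were drawn from transcripts to which a peak or site was assigned, while the chromosomes include sequence between genes. Spans of other genes were not counted in the same way, so no excess can be read from the difference.

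The peaks assigned elsewhere included the strongest within daf-12 and nhr-25. In daf-12 the peak at 10663741 to 10664203, near the 3′ end and assigned to the non-coding F11A1.12, had an enrichment of 2.33, above 95.1% of L1 peaks. It alone in daf-12 overlapped an L2 peak (1.42). A peak of 2.11 at 10650827 to 10651569 was assigned to the non-coding F11A1.14. In nhr-25 the peak at 13010067 to 13010435 was assigned to the non-coding F11C1.15, with an enrichment of 2.08. In dre-1 a peak of 2.25 at 6541840 to 6542418 was assigned to the non-coding K04A8.16.

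By span, a site in daf-12 fell. The site at 10650807 to 10651562 went from a log2 concentration of 6.71 to 6.22 (log2 fold -0.49, FDR 0.0246) in the authors' deposited table. The daf-12 site with the L2 peak went from 6.26 to 5.82 and did not pass (log2 fold -0.44, FDR 0.0583) in the authors' deposited table. A further one, at 10662836 to 10663350, had a log2 fold of -0.27 (FDR 0.205) in the authors' deposited table. In nhr-25 the site under the strongest peak went from 6.93 to 6.42 (log2 fold -0.51, FDR 0.0575) in the authors' deposited table, and it did not pass either.

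In dre-1, 1 of 4 further sites fell, the one assigned to hpo-26 (log2 fold -0.49, FDR 0.0389) in the authors' deposited table. Together 8 of 20 sites in the spans (40%) fell in the authors' deposited table, again near the background of 41.4%. At the level of genes, 4 of 7 members with a listed site had a site that fell by gene name in the authors' deposited table, and by span 5 of 8. Over all genes with a listed site, taken by gene name, that share was 49.4% in the authors' deposited table. By span it was not counted over all genes, so the 5 of 8 has no like background. Taking for each gene its site of highest concentration, 3 of 7 members (42.9%) had fallen, beside 42.1% of all genes in the authors' deposited table.

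Other genes of the molting cycle were examined in 5 lists, whose counts stand beside the 49.4% of all genes with a listed site that had one fall in the authors' deposited table. Of 10 transcription factors and partners of the oscillator, 6 had a listed site and 3 had one that fell in the authors' deposited table. These were myrf-1 (log2 fold -0.76, FDR 0.0202) and myrf-2 (-0.47, FDR 0.0412), membrane-bound transcription factors, and the Grainyhead gene grh-1 (-0.59, FDR 0.0318) in the authors' deposited table. Here and in the other lists, each gene is given by its listed site of lowest FDR. Of the 3 grh-1 sites 2 fell in the authors' deposited table. For the timeless homologue tim-1 the authors' deposited table gave -0.49 (FDR 0.0696), which did not pass.

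Among 20 effectors of molting, 17 had an L1 peak and 5 an L2 peak, and 8 of 12 genes with a listed site had one that fell in the authors' deposited table. The 20 were not picked from the named genes, so the 17 have no background share here. By site, 13 of 27 fell in the authors' deposited table, beside 41.4% of all listed sites. The lowest FDR belonged to noah-1, an apical matrix gene (log2 fold -0.72, FDR 0.0113), and mlt-11, a protease inhibitor gene (-0.59, FDR 0.0198), in the authors' deposited table. Next were the endocytic receptor gene lrp-1 (-0.58, FDR 0.0219) and mlt-9 (-0.55, FDR 0.0246), which is needed for molting, in the authors' deposited table. Of the 4 noah-1 sites 1 fell, of the 9 lrp-1 sites 3 fell, and of the 3 mlt-11 sites 3 fell in the authors' deposited table. lrp-1 had 12 L1 peaks and 8 L2 peaks, more in each stage than any of the 8 clock genes.

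In the DAF-12 hormone pathway, 2 of 5 genes with a listed site had one that fell in the authors' deposited table. They were din-1, which encodes a corepressor of DAF-12 (log2 fold -0.82, FDR 0.0108), and hsd-1, a steroid dehydrogenase gene (-0.68, FDR 0.0174), in the authors' deposited table. Of the 2 din-1 sites 1 fell, and of the 4 hsd-1 sites 2 fell. Over this list 3 of 13 sites fell, beside 41.4% of all listed sites, in the authors' deposited table. daf-9, the P450 that makes dafachronic acids, had 4 listed sites in the authors' deposited table and none passed, the nearest being one at -0.39 (FDR 0.0606). The sterol transport gene ncr-2 did not pass either (-0.42, FDR 0.0744) in the authors' deposited table.

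Of 6 partners of DRE-1 in its SCF ubiquitin ligase, 4 had a listed site. Of these, cand-1 (log2 fold -0.52, FDR 0.0386) and the cullin gene cul-1 (-0.50, FDR 0.0496) had one that fell in the authors' deposited table. Of the 2 cand-1 sites 1 fell. Neither ned-8 (-0.46, FDR 0.0535) nor rbx-1 (-0.40, FDR 0.0875) passed in the authors' deposited table. Of 6 microRNA genes linked to the clock and DAF-12, let-7 alone had a listed site, and it fell (-0.63, FDR 0.0176) in the authors' deposited table. mir-48 and mir-84 had 1 L1 peak each, and no peak was assigned to lin-4, mir-241 or mir-237.

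Over these 52 genes, 28 had a listed site, 16 had one that fell and 0 had one that rose in the authors' deposited table, and 23 of their 55 sites fell. Over all genes with a listed site 49.4% had one that fell, and 41.4% of all listed sites fell, in the authors' deposited table. The median log2 fold over the 55 sites was -0.46, against -0.44 over all listed sites in the authors' deposited table. Over 196 genes named nhr, the nuclear receptor family to which nhr-23, nhr-25 and nhr-85 belong, 45 of 106 with a listed site had one that fell, and the median log2 fold of the sites was -0.44, by the authors' deposited table.

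**Figure D5:**
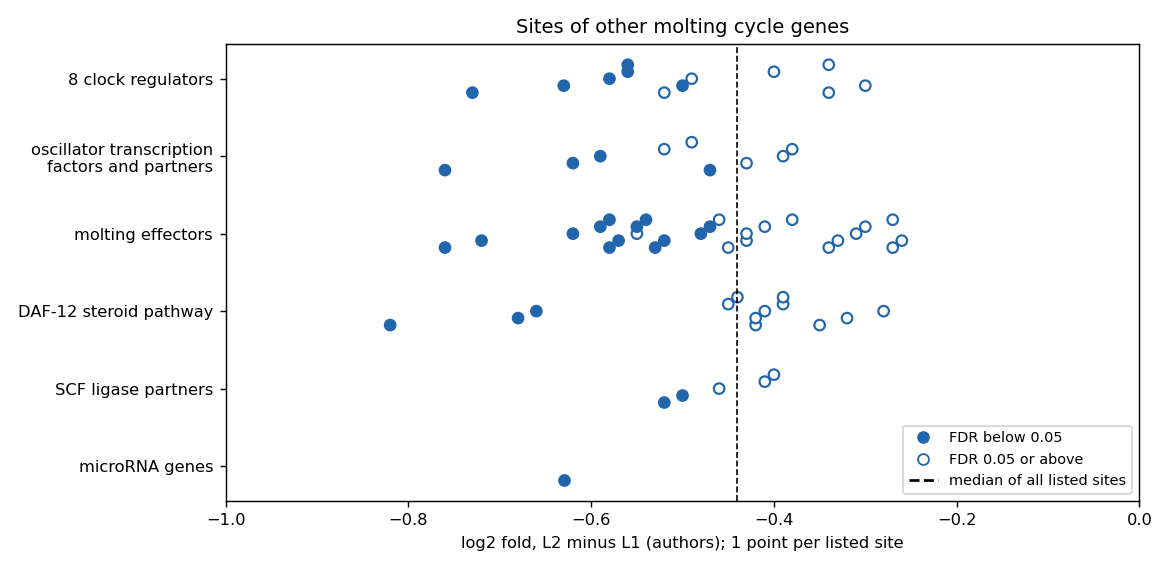
Log2 fold from L1 to L2 (x axis, the authors' values) of each listed site of the 8 clock regulators and of 5 lists of other molting cycle genes (rows). Filled points have an FDR below 0.05 and the dashed line is the median of all listed sites, -0.44. In the lists with more than 1 site the points spread to both sides of that line.

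Genes most like lin-42 were sought among those with the same 7 L1 peaks, no L2 peak and a listed site, of which there were 20. They were ordered by how far the log2 fold at their site of highest concentration lay from that of lin-42. The nearest was Y43F4A.4 (log2 fold -0.48), followed by sptf-1, an Sp-type zinc finger gene (-0.47), in the authors' deposited table. Next came C23H3.9 (-0.55), the sodium-proton exchanger gene nhx-5 (-0.43) and the non-coding F53F8.10 (-0.42) in the authors' deposited table. Of these 5, C23H3.9 passed (FDR 0.0244) in the authors' deposited table. The likeness rests on 1 value per stage. The genes were picked for small differences, so it follows from that choice that these lay within the implied standard error of the lin-42 fold, 0.237.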

How the data were processed

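The authors' tools, per the submitters' processing notes, include the aligner BWA, SAMtools, the peak caller MACS2, DiffBind and ChIPseeker. Not given in the sources used here are versions, build, control of the peak calls and normalization. Peaks were called on merged libraries with outliers removed, per the peak names in the deposited files. Each deposited peak has a score (10 times its -log10 q, truncated), a fold enrichment ratio, and -log10 p and q values. The authors' deposited comparison gives log2 concentrations, their log2 fold, a p-value and an FDR, and lists sites up to an FDR of 0.3. From p and FDR, about 16903 sites were tested.

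Here, rows were selected by gene name, overlaps of at least 1 bp were counted, and starts were moved to count from 1, which the deposited distances fit in 100% of rows checked. Sites with an FDR below 0.05 were counted as fallen or risen. In an alternative, each fold was tested against the median with a standard error implied by fold and p, Benjamini-Hochberg adjusted over all sites. The test was checked on simulated drops far larger than any difference from the median at the 8 genes. That check therefore does not cover differences as small as theirs. Biotypes came from RefSeq, WBcel235 (96.1% of 18846 names matched). The 8 genes and the lists were chosen with earlier results of these data known. The 8 genes, the up to 4 list members of lowest FDR and the 5 genes most like lin-42 are named. No label ties replicates to separate cultures, so the spread behind the p-values may be technical. Python 3.11.15, pandas 2.3.3, NumPy 2.4.6, SciPy 1.17.1 and matplotlib 3.10.9 were used.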

Additional observations from a re-analysis of the deposited data

How the results depend on the processing

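Peak counts depended on the threshold: of 30 L1 peaks 6 had a -log10 q of at least 10 (27.8% of all L1 peaks) and 4 a fold enrichment of at least 2 (24.7%), and of 7 L2 peaks 0 passed either. Over all L2 peaks the upper quartile of fold enrichment was 1.62 and the maximum 2.25, so 0 of 7 at 2 is not particular to these genes. The share of all L2 peaks with a -log10 q of at least 10 was not counted. A limit of 3 kb to the start kept 28 and 7. Most L1 peaks of all genes are also of promoter classes, 56.0% up to 1 kb, 22.7% at 1-2 kb and 10.5% at 2-3 kb. The class text names no gene for promoter and 3′ UTR peaks, so it could name a member at none of the 30. The 1 L1 peak whose class text names a member lies in daf-12 and is assigned to F11A1.14. A reciprocal overlap of 50% left 2 of the 5 shared L1 peaks, 6.67% of the 30 beside 13.4% of all L1 peaks. At an FDR below 0.01 0 of 12 sites fell (1.8% of all listed sites), and at an FDR below 0.1 9 did (67.9%), in the authors' deposited table. With 1 site per gene, that of highest concentration, 3 of 7 genes fell (42.1% of all genes). Against the median, 0 sites of the 8 genes and 0 of all 14675 listed sites fell, in a test that could hardly call differences of this size. After subtracting the median, 4 folds changed sign: nhr-23 (0.04 and 0.10), blmp-1 (0.14) and dre-1 (0.10). The 6 sites that had fallen then lay at -0.29 and -0.19 (kin-20), -0.12 and -0.12 (nhr-85), -0.06 (blmp-1) and -0.14 (dre-1), none past the threshold. Of the other counts per gene, where the reported count was above 0, 20 stayed within 1.5 times and 36 did not. The 36 include the class text rule at each of the 8 genes, whose outcome was largely fixed in advance. Where the reported count was 0, 15 of 16 were 0 again, which a stricter limit could not have changed. Leaving out each replicate was not run, since values are merged per stage. No paired analysis was possible because the values are merged per stage and carry no replicate number.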
